A study of Mus musculus with 18 samples.

Results

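Hearts transduced with the splice variant PLCβ1b were compared with hearts that received a blank vector, 6 hearts of each, which are 12 of the 18 hearts sequenced. The comparison was described across all genes, by pathway, gene family and gene class as well as by single gene. All mice were C57BL/6 males, injected through the tail vein when 8 weeks old, and hearts were removed after a further 9 weeks, when the mice were 17 weeks old. The vector, rAAV6, is a recombinant adeno-associated virus that reaches heart muscle from the blood. It carried FLAG-tagged PLCβ1b, or a promoter with no protein product in the blank vector, and which promoter was used is not given in the sources used here. The other 6 hearts, which received rAAV6 with the splice variant PLCβ1a, were fitted in the same model and are used where the PLC groups are set side by side. All hearts received a virus, each came from a separate mouse, and none of the mice was put under an added load. The sample labels name both ventricles as the tissue, whereas the methods of the study name the left ventricle.

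Phospholipase Cβ enzymes sit at the plasma membrane, where activated Gαq switches them on after receptors for hormones such as angiotensin, endothelin or noradrenaline bind their ligand. They cleave the membrane lipid PIP2 into IP3, which opens calcium channels of internal stores, and diacylglycerol, which activates protein kinase C. PLCβ1a and PLCβ1b are made from the same gene, Plcb1, and differ only in their last residues, which place PLCβ1b at the sarcolemma with the scaffold Shank3. The study asked whether the low contractility that PLCβ1b causes is enough to bring about a compensatory response of transcripts before hypertrophy sets in. PLCβ1a, which left contractility unchanged, served as a second control that, unlike the blank vector, expresses a protein. In the study's echocardiography, ejection fraction was lower in PLCβ1b mice than in blank or PLCβ1a mice, and no hypertrophy was detected.

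In the GENCODE annotation of mm10, Plcb1 has a transcript for a protein of 1216 residues, PLCβ1a, with 32 exons and one for a protein of 1173 residues, PLCβ1b, with 33 exons. Of these transcripts PLCβ1b alone holds an exon of 118 bases, within which its reading frame ends. The 32 codons and the stop codon of that exon, at chr2:135399249-135399347 on the plus strand, are printed because they encode the tail that sets PLCβ1b apart, and the capitals mark the stop codon. Reads were counted per gene, so neither the 2 transcripts nor vector and endogenous transcripts can be told apart.
Plcb1, PLCβ1b tail: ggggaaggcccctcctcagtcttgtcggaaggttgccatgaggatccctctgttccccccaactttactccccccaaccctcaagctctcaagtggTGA

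Total counts ran from 13354157 to 22669587 per heart, of which 3981040.0 to 6943832 fell on nuclear genes. The mitochondrial share was 67.8 to 70.3% in blank hearts and 68.7 to 71.9% in PLCβ1b hearts (exact permutation test, two-sided, p = 0.149). Most of that share was 1 ribosomal RNA, mt-Rnr2, with 55.0 to 56.8% of all counts in blank hearts and 54.5 to 57.5% in PLCβ1b hearts. Cardiomyocyte markers were high in every heart, markers of lymphocytes and of lung epithelium were too low to be tested, and the haemoglobin genes Hba-a1, Hba-a2 and Hbb-b1 were listed at 0. These 0 values are not read as absence of blood, because the 8 erythrocyte markers in the counts summed to 6.50 to 13.9 CPM in blank hearts and 8.76 to 17.4 CPM in PLCβ1b hearts. Blank heart 30 stood apart on the first principal component of the 12 hearts (19.6% of the variance), followed by blank heart 26, and PLCβ1b heart 8 stood apart on the second (12.3%). Blank heart 30 had 13.3 CPM (read counts relative to the TMM-scaled total of the heart, mitochondrial genes included) of the clock gene Arntl, against 0.989 to 3.66 in the other blank hearts. Without blank heart 30, 10 genes were called, without blank heart 26 16 and without PLCβ1b heart 8 16, where all hearts gave 12.

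Plcb1 was the gene with the largest rise. It measured 5.43 to 6.89 CPM (median 6.22) in blank hearts and 23.2 to 69.99 CPM (median 46.2) in PLCβ1b hearts. Every PLCβ1b heart, from heart 8 at the low end to heart 4 at the high end, lay above every blank heart. The gene lies at chr2:134786164-135475258 in mm10. In a model of all 3 groups (edgeR's quasi-likelihood test, with p-values adjusted over all genes by Benjamini-Hochberg as an FDR) the log2 fold change was 2.90 with a standard error of 0.25 (FDR 8.24e-05). Its smallest estimate, on FPKM with 1 added, was 2.14. The other phospholipase C genes tested did not pass: none of the 10 had an unadjusted p under 0.05.

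Of the 12281 genes tested, 12 had an FDR below 0.1, which is 0.0977%, with 9 higher in PLCβ1b hearts (0.0733%) and 3 lower (0.0244%). In 8 of these genes the ranges of the groups were apart, whereas 59 of all genes tested had no overlap (0.480%). Apart from Plcb1 the changes were small, with a median fold of 1.36 and a range from 1.14 to 1.63. All 12 stood in 1 or more of the 97 gene lists and families, which had been written with these calls known, so their presence in a list is no evidence for it. The called genes fall into regulators of chromatin and transcription, a cytokine inhibitor, signalling proteins, and genes of endothelium and cell adhesion, and they are described in that order.

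Chd6, a chromatin remodeller of the CHD helicase family, had the lowest FDR of the genes that fell. Chd6 lies at chr2:160946978-161109056 and measured 51.3 to 58.3 CPM (median 55.1) in blank hearts and 39.9 to 49.04 CPM (median 44.7) in PLCβ1b hearts. Every PLCβ1b heart was below every blank heart, and the log2 fold change, -0.31 (standard error 0.046, FDR 0.000507), kept its call without any 1 of the 12 hearts and in each of the 10 other ways of processing that were tried. Banp, a nuclear protein that binds CGCG-containing promoters, measured 5.28 to 6.87 CPM (median 5.93) in blank hearts and 2.67 to 5.15 CPM (median 3.67) in PLCβ1b hearts. The groups did not overlap, although PLCβ1b heart 16, at 5.15 CPM, came close to the lowest blank heart. Banp fell by 0.70 on the log2 scale (standard error 0.13, FDR 0.0267), and the call was lost without blank heart 34 (FDR 0.108) or PLCβ1b heart 17 (FDR 0.122). Prox1, a homeobox transcription factor of lymphatic endothelium that heart muscle also uses, measured 20.2 to 27.6 CPM (median 22.9) in blank hearts and 26.2 to 29.5 CPM (median 28.02) in PLCβ1b hearts. Blank heart 26 lay inside the PLCβ1b range, and the log2 fold change was 0.28 (standard error 0.060, FDR 0.0555). Srrm4, a splicing regulator best known for neuronal microexons, stood at 3.21 to 4.41 CPM (median 3.83) in blank hearts and 4.71 to 6.50 CPM (median 5.08) in PLCβ1b hearts, with no overlap and a log2 change of 0.45 (standard error 0.097, FDR 0.0596).

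Cish, an SH2 protein that STAT5 induces and that dampens cytokine and growth hormone signalling, was the other gene that fell. Cish lies at chr9:107296689-107301961 and measured 15.8 to 23.7 CPM (median 20.9) in blank hearts and 13.2 to 16.8 CPM (median 14.1) in PLCβ1b hearts. Only PLCβ1b heart 4, at 16.8 CPM, entered the range of the blank hearts, the lowest of which, heart 33, had 15.8 CPM. The log2 fold change was -0.48 (standard error 0.088, FDR 0.0267), and the call was lost without blank heart 34 (FDR 0.108) or PLCβ1b heart 17 (FDR 0.122). Socs2, a relative of Cish that STAT5 also induces, measured 12.5 to 13.6 CPM (median 12.9) in blank hearts and 8.98 to 12.6 CPM (median 10.7) in PLCβ1b hearts. Its log2 change of -0.28 (standard error 0.076, FDR 0.196) did not pass. In the list of Cish, SOCS and STAT5 axis genes, 3 of 29 tested had an unadjusted p under 0.05, all lower (Cish, Socs2 and the receptor gene Lifr at -0.10), while the list's median was 0.019.

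The promoter of Cish is printed because it shows the letters that STAT5 dimers are known to bind, TTCNNNGAA, which read the same on both strands. The window runs from 250 bases before the RefSeq start to 50 after it, at chr9:107296409-107296708 on the plus strand of GRCm38.p6, and the capitals mark the matches. Among the 32851 such windows of all genes 8.30% held at least 1 match and 0.457% held 2 or more. Of the 12 called genes 8 were found in the table by symbol, and the letters occurred in the windows of Cish and Plcb1. A match is a description of the sequence and was not tested for binding.
Cish promoter: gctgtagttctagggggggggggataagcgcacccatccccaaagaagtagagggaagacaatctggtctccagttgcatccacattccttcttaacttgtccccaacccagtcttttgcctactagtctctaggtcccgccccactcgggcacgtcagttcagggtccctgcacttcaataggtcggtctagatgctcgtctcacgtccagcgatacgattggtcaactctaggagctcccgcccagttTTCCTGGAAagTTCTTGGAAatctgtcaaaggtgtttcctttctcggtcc

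Among the signalling proteins, Arhgap18, a GTPase-activating protein, measured 10.5 to 13.2 CPM (median 12.1) in blank hearts and 13.2 to 17.7 CPM (median 15.1) in PLCβ1b hearts. The groups did not overlap, but blank heart 30 and PLCβ1b heart 16 both stood at 13.2 CPM after rounding. Its log2 fold change was 0.38 (standard error 0.076, FDR 0.0267). Ccdc88c, also called Daple, a binding partner of Dishevelled in Wnt signalling, stood at 3.69 to 5.98 CPM (median 5.20) in blank hearts and 6.30 to 7.74 CPM (median 6.81) in PLCβ1b hearts, and the log2 fold change of 0.44 (standard error 0.10, FDR 0.0998) only just passed, with no overlap. In genes of endothelium and adhesion, the protocadherin gene Pcdh17 measured 3.81 to 4.93 CPM (median 4.52) in blank hearts and 5.40 to 6.74 CPM (median 6.17) in PLCβ1b hearts, without overlap. Lmo2, a LIM-domain cofactor of blood and vessel development, measured 4.97 to 6.04 CPM (median 5.33) in blank hearts and 6.00 to 8.06 CPM (median 6.89) in PLCβ1b hearts. The log2 fold change was 0.46 (standard error 0.093, FDR 0.0267) for Pcdh17 and 0.37 (standard error 0.085, FDR 0.0998) for Lmo2. For Lmo2 only blank heart 32 entered the PLCβ1b range. In whole ventricle, a change in the number of cells of a type and in their RNA per cell cannot be told apart. The long noncoding RNA 2810055G20Rik (log2 fold change 0.45, standard error 0.089, FDR 0.0267) and Tmem245, a membrane protein gene (log2 fold change 0.19, standard error 0.043, FDR 0.0788), complete the called genes. 2810055G20Rik measured 5.42 to 7.34 CPM (median 7.26) in blank hearts and 8.10 to 10.97 CPM (median 9.42) in PLCβ1b hearts, and Tmem245 49.2 to 57.9 CPM (median 52.3) in blank hearts and 57.8 to 63.3 CPM (median 60.3) in PLCβ1b hearts. Blank heart 30 was the lowest for 2810055G20Rik, and without it the log2 fold change was 0.39 (FDR 0.083).

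**Figure D1:**
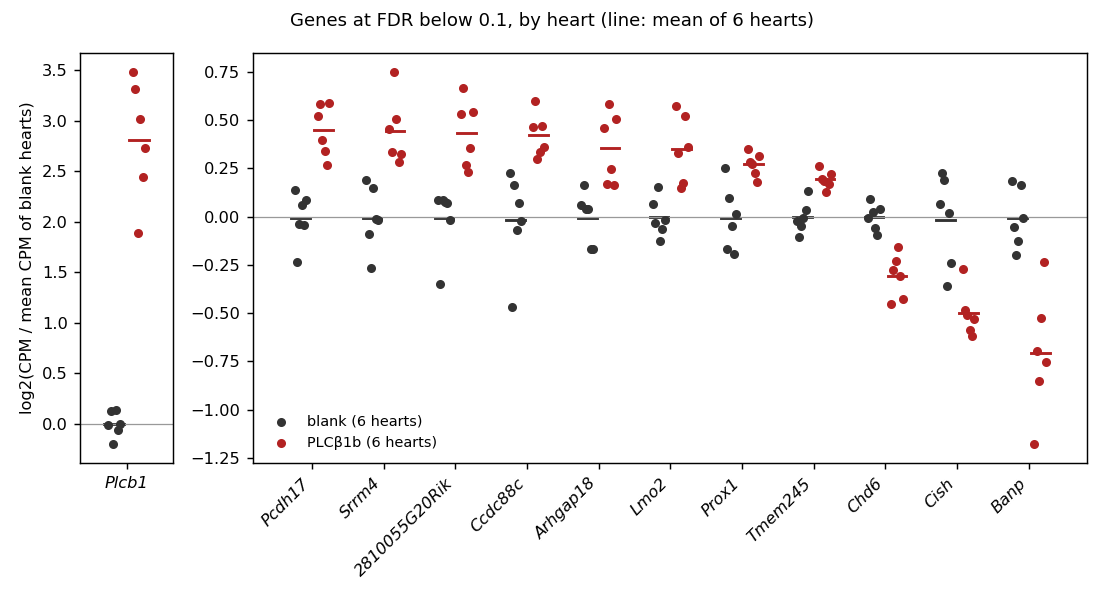
The y axis gives the log2 ratio of each heart's CPM to the mean CPM of the 6 blank hearts, for the 12 genes at FDR below 0.1; points are hearts, short lines are the means of 6, and Plcb1 has an axis of its own. Plcb1 is far above the blank hearts in all 6 PLCβ1b hearts, the other 8 genes that rose and the 3 that fell differ by at most 1.63-fold, and 8 of the 12 genes show no overlap.

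Most of these calls depended on single hearts or on the scale. Plcb1 and Chd6 were called without any 1 of the 12 hearts, Banp and Cish without each of 10, and the others without each of 3 to 8. The number of genes called was 2 when blank heart 34 or PLCβ1b heart 17 was left out, 4 for PLCβ1b heart 4 and 6 for PLCβ1b heart 6, and it reached 18 for blank heart 32. In the 10 other ways of processing, Plcb1, Chd6 and Banp were called each time. Cish lost its call on log2(FPKM + 0.1), and the other 8 genes lost theirs on both FPKM scales. Ccdc88c also lost it without robust dispersion and with a correction for length and GC content, Tmem245 with that correction, Prox1 without robust dispersion, and Srrm4 and Lmo2 when only the 12 hearts were fitted. Of the 12 genes, 7 had an unadjusted p under 0.05 between PLCβ1b and PLCβ1a hearts, a contrast that shares the PLCβ1b hearts that chose them, but 0 passed in edgeR's quasi-likelihood test (lowest FDR 0.801), and over all genes 543 had an unadjusted p under 0.05. Plcb1 was 1.82 above blank in PLCβ1a hearts on the log2 scale and 2.90 in PLCβ1b hearts. Cish was -0.84 from blank in PLCβ1a hearts (FDR 1.41e-05), against -0.48 in PLCβ1b hearts. The PLCβ1b minus PLCβ1a difference for Cish was 0.36 (standard error 0.092, FDR 0.801). For Chd6 and Banp, which fell in PLCβ1b hearts, the PLCβ1a difference from blank was -0.14 and -0.15 and did not pass (FDR 0.317 and 0.768). The direct PLCβ1b minus PLCβ1a difference was -0.17 (standard error 0.046) and -0.55 (standard error 0.13), each with an FDR of 0.801.

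Just outside the threshold, the genes with the lowest p included several of heart muscle. Cacna1c, the pore subunit of the L-type calcium channel, measured 151 to 162 CPM (median 159) in blank hearts and 165 to 192 CPM (median 178) in PLCβ1b hearts, without overlap, and its log2 fold change of 0.18 (standard error 0.043, FDR 0.115) missed the threshold by little; DESeq2 called it. Irx3, a transcription factor of the ventricular conduction system, measured 3.40 to 4.86 CPM (median 3.90) in blank hearts and 5.04 to 6.05 CPM (median 5.59) in PLCβ1b hearts, also without overlap (log2 fold change 0.45, standard error 0.11, FDR 0.125). Rnu12, the U12 RNA of the minor spliceosome, had a log2 change of 0.35 (standard error 0.082, FDR 0.163), and Cited2, a transcriptional co-regulator of heart development, 0.29 (standard error 0.076, FDR 0.196). The other genes higher in PLCβ1b hearts among the 10 closest were Scin, Grhl2, Zcchc11, Frmd4a, Cd1d1 and Bcar3, between 0.22 and 1.01 on the log2 scale, of which Cd1d1 and Grhl2 had at most 42 counts in any heart. On the lower side, Zbtb16, a glucocorticoid-induced zinc finger repressor, measured 42.97 to 81.5 CPM (median 52.9) in blank hearts and 29.2 to 40.6 CPM (median 37.2) in PLCβ1b hearts, with no overlap and a log2 change of -0.64 (standard error 0.14, FDR 0.188). Blank heart 30 was its highest, at 81.5 CPM, and without that heart the log2 change was -0.50 (FDR 0.146). Hspd1, the mitochondrial chaperonin, was at -0.20 (standard error 0.052, FDR 0.196), and the complex I assembly gene Ndufaf4 and the mitochondrial ribosomal gene Mrpl48 at -0.19 and -0.32, both without overlap. Pik3r1, the regulatory subunit of PI3-kinase, was at -0.23, or -0.17 without blank heart 30. Pik3r1, Lrrc8a, a subunit of the volume-regulated anion channel, Rtn4r, Kxd1, Slc4a8 and Tmcc1 made up the rest of the 10 on that side.

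Across all genes the differences between groups were small. The middle 90% of log2 fold changes lay between -0.21 and 0.26, the median was -0.00089, and 49.6% of the genes tested were above 0. With an unadjusted p under 0.05, 910 genes (7.41%) were counted, 484 of them higher in PLCβ1b hearts (3.94% of the genes tested) and 426 lower (3.47%). These 2 shares are the background for every gene list that follows, where a count at that limit is a description and no list member other than the 12 called genes passed at an FDR below 0.1. On log2(FPKM + 0.1) the split of genes at that limit was 263 higher and 532 lower, so 33.1% were higher in place of 53.2%, and the median of all genes was -0.019.

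The shortest transcripts leaned downward and the longest upward. Genes were ordered by exonic length and cut into 10 sets of near equal size. In the shortest set, up to 1192 bases of exons, 23 were higher and 54 lower at an unadjusted p under 0.05, with a median log2 fold change of -0.025. In the longest set, from 6493 bases, 103 were higher and 47 lower, with a median of 0.016. By GC content the medians ran from -0.016 in the lowest set to 0.019 in the highest, and by level from 0.053 in the set with the fewest counts to -0.0088 in the most abundant. The slope of log2 CPM on exonic length, per doubling, was -0.031 to 0.00073 in blank hearts and -0.013 to 0.014 in PLCβ1b hearts (exact permutation test, two-sided, p = 0.108). Because gene lists differ in length, the median exonic length or the value after a correction for length and GC content is given beside some of the lists. Over all genes the median length was 2985 bases. No correction for level was made.

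**Figure D2:**
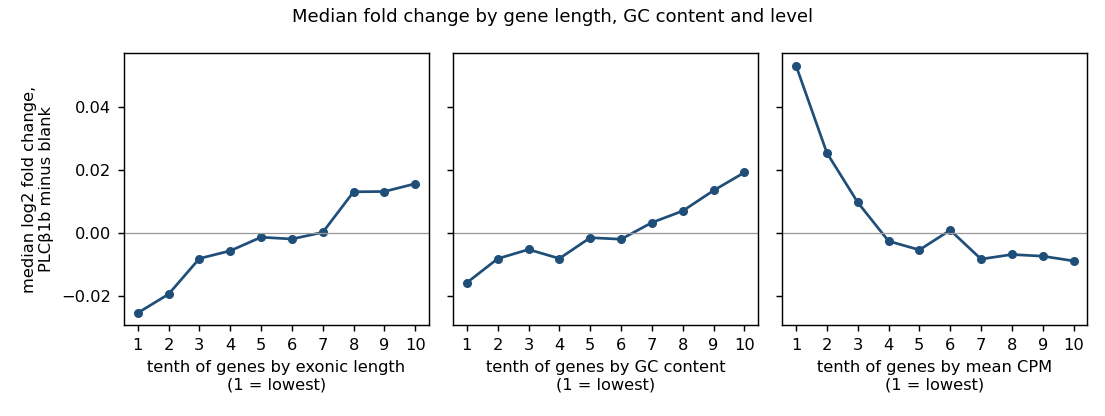
Each point is the median log2 fold change (PLCβ1b minus blank) of 1 of 10 sets of genes, ordered by exonic length, by GC content of the transcript and by mean CPM over the 18 hearts. The median runs from -0.025 for the shortest to 0.016 for the longest genes, from -0.016 to 0.019 with GC content, and from 0.053 for the least abundant genes to -0.0088 for the most abundant.

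Genes that carry the signal from Gq receptors to calcium and protein kinase C seldom reached an unadjusted p under 0.05. Of the 11 phospholipase C genes tested only Plcb1 passed, and the median was 0.031. Plcb4 measured 26.1 to 33.3 CPM (median 30.2) in blank hearts and 27.8 to 32.3 CPM (median 30.8) in PLCβ1b hearts, and Plcb3, another isoform that Gαq activates, 8.14 to 10.05 CPM (median 9.19) in blank hearts and 8.15 to 10.1 CPM (median 9.11) in PLCβ1b hearts. Both ranges overlap almost wholly, with log2 fold changes of 0.031 (standard error 0.059) and 0.0010 (standard error 0.080). Among 21 Gq proteins and Gq-coupled receptors, 1 was higher at an unadjusted p under 0.05, the sphingosine 1-phosphate receptor gene S1pr3 at 0.20, and 1 lower, the purinergic receptor gene P2ry1 at -0.19. Of 10 RGS genes, whose products switch Gα subunits off, 1 reached that limit, Rgs12 at 0.21 (standard error 0.073, FDR 0.484). None of the 19 protein kinase C and diacylglycerol kinase genes reached it, 14 were above 0 and the median was 0.051, or 0.034 without PLCβ1b heart 10 and 0.019 on log2(FPKM + 0.1). Prkca, the main cardiac isoform, measured 14.6 to 16.96 CPM (median 14.9) in blank hearts and 14.5 to 19.2 CPM (median 15.7) in PLCβ1b hearts, with a log2 change of 0.091 (standard error 0.066, FDR 0.812).

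Of the 26 genes that supply PIP2 or handle inositol phosphates, 3 were higher at an unadjusted p under 0.05 and 0 lower, with a median of 0.040. They were Inpp5k, an inositol phosphatase (log2 fold change 0.18, standard error 0.066, FDR 0.502), Itpkc, an IP3 kinase (0.34), and Pi4k2b, which makes the precursor of PIP2 (0.37). The mean of the list, taken per heart on the log2 CPM scale relative to the blank mean, was -0.015 to 0.023 in blank hearts and 0.022 to 0.067 in PLCβ1b hearts, so the lowest PLCβ1b heart and the highest blank heart overlapped. Among 11 Shank and Homer scaffold genes Homer2 was the only one at that limit, at -0.11 (standard error 0.044, FDR 0.561). Shank3, the partner of PLCβ1b, measured 24.5 to 26.4 CPM (median 25.7) in blank hearts and 22.4 to 28.95 CPM (median 26.05) in PLCβ1b hearts, a log2 change of 0.030 (standard error 0.064). In the list of β-adrenergic and cyclic AMP genes, 2 of 37 were higher and 1 lower, led by the kinase anchor Akap5 (log2 fold change 0.43, standard error 0.12, FDR 0.235). Akap5 measured 2.25 to 4.03 CPM (median 3.71) in blank hearts and 3.77 to 5.13 CPM (median 4.86) in PLCβ1b hearts. CaMKII, calcineurin and NFAT genes, the textbook route from calcium to hypertrophy, had 1 of 32 higher and 0 lower, the kinase subunit Camk2b at 0.34 (standard error 0.12, FDR 0.521), and MAP kinase cascades had 2 of 43 higher and 0 lower.

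Wnt and Notch genes, which pattern the developing heart and its vessels, were mostly above 0. Of 44 tested, 7 were higher and 1 lower at an unadjusted p under 0.05, that is 15.9% higher where all genes gave 3.94%, and the median was 0.061. The list holds the called gene Ccdc88c. The Notch ligand Jag1 measured 9.49 to 11.1 CPM (median 10.4) in blank hearts and 10.3 to 13.7 CPM (median 12.03) in PLCβ1b hearts (log2 fold change 0.21, standard error 0.077, FDR 0.501), and the Wnt antagonist Sfrp2 1.03 to 1.49 CPM (median 1.21) in blank hearts and 0.893 to 2.23 CPM (median 1.77) in PLCβ1b hearts (log2 fold change 0.51, standard error 0.18, FDR 0.508). The Notch target Hey1 was on the lower side, at -0.26 (standard error 0.11, FDR 0.599). The ranges of Jag1, Sfrp2 and Hey1 all overlap between groups. The list's mean per heart was -0.069 to 0.038 in blank hearts and 0.020 to 0.11 in PLCβ1b hearts. After the correction for length and GC content the median was 0.039, and on log2(FPKM + 0.1) it was 0.038.

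Genes of the calcium store were mostly below 0. The 28 genes of the sarcoplasmic reticulum and calcium handling, which store and release the calcium of each beat, had a median of -0.042, with 23 below 0. At an unadjusted p under 0.05 3 were lower and 0 higher. Tmem38a, a channel of the reticulum membrane, measured 121 to 133 CPM (median 126) in blank hearts and 115 to 122.7 CPM (median 119.5) in PLCβ1b hearts (log2 fold change -0.096, standard error 0.036, FDR 0.542). Casq2, the calcium-binding protein of the store, measured 356 to 406 CPM (median 370.3) in blank hearts and 338 to 377 CPM (median 351) in PLCβ1b hearts (log2 fold change -0.091, standard error 0.038, FDR 0.599), and Srl, sarcalumenin, had a log2 change of -0.084 (standard error 0.036, FDR 0.601). The ranges of all 3 genes overlap between groups. The genes best known from heart failure were nearer 0 than these 3 genes. Atp2a2 (the pump SERCA2a) was at -0.048, slightly beyond the list's median of -0.042. Ryr2 (the release channel) was at -0.026 and Pln (phospholamban) at -0.0075. The standard errors of Atp2a2, Ryr2 and Pln were 0.037, 0.043 and 0.036. Atp2a2 measured 4596 to 5244 CPM (median 4899) in blank hearts and 4565 to 4939 CPM (median 4739.6) in PLCβ1b hearts. The list's mean per heart was -0.037 to 0.026 in blank hearts and -0.078 to -0.031 in PLCβ1b hearts, and its median was -0.026 without blank heart 30 and -0.042 after correction for length and GC content.

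Subunits of voltage-gated calcium channels were mostly above 0, with Cacnb2 on the lower side. Besides Cacna1c, the skeletal-type pore gene Cacna1s (log2 fold change 0.39, standard error 0.12, FDR 0.303) and the auxiliary subunit Cacna2d2 (log2 fold change 0.56, standard error 0.21, FDR 0.542) were higher at an unadjusted p under 0.05, and the β subunit Cacnb2 was lower. Cacnb2 measured 37.6 to 44.02 CPM (median 39.9) in blank hearts and 33.9 to 37.02 CPM (median 36.2) in PLCβ1b hearts, without overlap, and its log2 fold change was -0.18 (standard error 0.048, FDR 0.196). Cacna1c and Cacnb2 encode parts of the same channel, and all 6 PLCβ1b hearts lay above the blank hearts for the first and below them for the second. Of 12 subunits tested, 9 were above 0, 3 were higher and 1 lower at that limit, and the median was 0.11. The list's genes are long (median 7711 bases), and the median was 0.085 with the correction for length and GC content, 0.071 on log2(FPKM + 0.1) and 0.070 without blank heart 33. Sarcomere genes lay close to 0, with 2 of 22 higher and 0 lower among myosins and their regulators, 0 of 20 higher and 2 lower in the thin filament and 1 of 33 higher and 1 lower among titin and Z-disc genes, and medians of 0.0075, -0.026 and -0.0028. Myh6, the main myosin heavy chain of the adult mouse heart, measured 8182 to 9016 CPM (median 8347) in blank hearts and 7921 to 8848 CPM (median 8158) in PLCβ1b hearts (log2 fold change -0.036, standard error 0.036, FDR 0.866). Actc1, cardiac actin, was at -0.10 (standard error 0.044, FDR 0.6), Fhl2, a LIM protein of the Z-disc, at -0.14 (standard error 0.046, FDR 0.362), and Myom2, an M-band protein, at 0.33 (standard error 0.12, FDR 0.564). In the list of the dystrophin complex and membrane linkage, which also holds the genes of the intercalated disc that joins heart cells, 4 of 39 genes were higher and 1 lower, 16 were below 0 and the median was 0.019, or 0.0087 with the correction. The plakoglobin gene Jup was at 0.18 (standard error 0.055, FDR 0.353), desmoplakin, Dsp, at 0.11 (standard error 0.038, FDR 0.484) and the gap junction gene Gja1 at 0.12 (standard error 0.053, FDR 0.632). Dsp measured 777 to 853 CPM (median 801) in blank hearts and 831 to 934 CPM (median 871) in PLCβ1b hearts. Its 2 ranges overlap in part. Among sodium, pacemaker and gap junction channels, which also hold Gja1, 2 of 25 were higher and 0 lower, 10 were below 0 and the median was 0.035, or -0.0011 without blank heart 30.

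Markers of hypertrophy and failure showed no common direction. Nppa, atrial natriuretic peptide, measured 22.3 to 35.6 CPM (median 27.03) in blank hearts and 23.1 to 34.7 CPM (median 26.9) in PLCβ1b hearts, and Nppb 23.3 to 75.3 CPM (median 34.9) in blank hearts and 31.9 to 50.7 CPM (median 35.1) in PLCβ1b hearts. Myh7, the fetal myosin that returns in hypertrophy, measured 26.1 to 49.6 CPM (median 32.03) in blank hearts and 22.6 to 81.1 CPM (median 35.2) in PLCβ1b hearts, and Acta1, skeletal actin, 45.7 to 91.9 CPM (median 65.4) in blank hearts and 48.2 to 97.1 CPM (median 70.8) in PLCβ1b hearts. In each of these 4 genes the ranges of the groups overlap, and the log2 fold changes were -0.018, -0.19, 0.33 and 0.11, with standard errors of 0.16, 0.26, 0.34 and 0.21. Myh7 was at 0.057 without PLCβ1b heart 6 and 0.46 without blank heart 36. With standard errors of 0.16 to 0.34, a change of 1.36-fold, the median of the called genes other than Plcb1, was too small to pass reliably at an FDR below 0.1 in any of these 4 genes. Of the 29 genes of the list, 2 were higher and 1 lower at an unadjusted p under 0.05, the stretch-responsive genes Ankrd1 (0.20) and Ctgf (0.24) and, lower, Actc1, and the median was -0.018.

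Genes of the extracellular matrix were mostly above 0. Of 31 collagen and basement membrane genes, 26 were above 0 and 5 were higher at an unadjusted p under 0.05 (16.1%, where all genes gave 3.94%), with none lower and none at FDR below 0.1. Col3a1, a fibrillar collagen of fibroblasts, measured 81.8 to 110.3 CPM (median 95.5) in blank hearts and 102 to 117 CPM (median 109) in PLCβ1b hearts (log2 fold change 0.19, standard error 0.067, FDR 0.521). Agrn, agrin of the basement membrane, measured 18.6 to 22.6 CPM (median 21.2) in blank hearts and 21.96 to 25.4 CPM (median 23.6) in PLCβ1b hearts (log2 fold change 0.17, standard error 0.053, FDR 0.349). Col15a1 was at 0.21, Col6a1 at 0.13 and Col1a1, the main collagen of scar, at 0.15 (standard error 0.096, FDR 0.78). For each of these 5 genes the groups overlap. The list's genes are long (median 6426 bases), and of the 1226 genes tested with 4975 to 6491 bases of exons, 74 were higher at an unadjusted p under 0.05. In the longest set, from 6493 bases, which begins just above that median, 103 of 1226 were higher. The median of the list was 0.068, and with the correction for length and GC content it was 0.037. It was 0.045 without blank heart 30 and 0.093 without blank heart 26. The mean per heart was -0.078 to 0.10 in blank hearts and -0.058 to 0.12 in PLCβ1b hearts, and these ranges overlap almost wholly.

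In the non-collagen list of fibrosis and TGF-β genes, 6 of 45 were higher and 2 lower, with a median of 0.049, or 0.026 on log2(FPKM + 0.1). Loxl1, which cross-links elastin, measured 7.62 to 10.5 CPM (median 9.52) in blank hearts and 9.84 to 12.7 CPM (median 11.2) in PLCβ1b hearts (log2 fold change 0.27, standard error 0.074, FDR 0.223), and Lum, the proteoglycan lumican, 20.02 to 24.5 CPM (median 21.9) in blank hearts and 23.2 to 30.3 CPM (median 24.7) in PLCβ1b hearts (log2 fold change 0.23, standard error 0.064, FDR 0.235). The matrix protease Mmp2 was at 0.18 (standard error 0.065, FDR 0.505), whereas Timp4, a protease inhibitor of heart muscle, was lower, at 8.79 to 14.4 CPM (median 11.5) in blank hearts and 7.39 to 10.4 CPM (median 8.44) in PLCβ1b hearts (log2 fold change -0.42, standard error 0.11, FDR 0.259). Postn, periostin of activated fibroblasts, was at -0.14 (standard error 0.070, FDR 0.686). The markers of fibroblasts summed to 942 to 1029 CPM in blank hearts and 967 to 1053 in PLCβ1b hearts, with 2 of 20 higher and 1 lower, and their part in the matrix values was not tested.

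Cardiac transcription factors, which set the identity of heart cells, were mostly above 0. Of 43 tested, 36 were above 0, 10 were higher at an unadjusted p under 0.05 (23.3%, where all genes gave 3.94%) and 0 lower, and the median was 0.068. The list was written with the values of Prox1 and Irx3 known and holds both, so it is not independent evidence of its direction. Without these 2 genes the median of the remaining 41 was 0.068, with 34 above 0. Earlier results for other genes were also known, so this does not make the remaining 41 independent evidence. Tbx2, a repressor of chamber genes, measured 1.73 to 3.28 CPM (median 2.28) in blank hearts and 2.99 to 3.57 CPM (median 3.31) in PLCβ1b hearts (log2 fold change 0.45, standard error 0.13, FDR 0.228), and Irx4, a ventricular factor, 8.21 to 10.3 CPM (median 9.69) in blank hearts and 9.25 to 12.2 CPM (median 10.98) in PLCβ1b hearts (log2 fold change 0.19, standard error 0.076, FDR 0.579). Blank heart 36, at 3.28 CPM, was the only blank heart inside the PLCβ1b range of Tbx2, and the ranges of Irx4 overlap more. The list's mean per heart was -0.044 to 0.032 in blank hearts and 0.047 to 0.17 in PLCβ1b hearts, and of 92 lists and families compared in this way it alone did not overlap between groups; without Prox1 and Irx3 the ranges were -0.036 to 0.037 and 0.032 to 0.16, which overlap slightly. The median was 0.057 with the correction for length and GC content and 0.034 on FPKM.

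Chromatin remodellers, the family of Chd6, went both ways. Of 43 tested, 5 were higher and 3 lower, 3 had no overlap, and the median was 0.011; with the correction for length and GC content it was -0.0099. Cecr2, a bromodomain partner of an ISWI remodeller, measured 9.35 to 14.5 CPM (median 12.98) in blank hearts and 13.7 to 16.95 CPM (median 15.1) in PLCβ1b hearts (log2 fold change 0.26, standard error 0.091, FDR 0.484), and Baz2b, another bromodomain gene, was at 0.12 (standard error 0.049, FDR 0.599). Both were higher in PLCβ1b hearts, opposite to Chd6 and Banp. Among 60 histone and DNA modifying enzymes 4 were higher and 0 lower, and the deacetylase gene Hdac11 measured 5.51 to 7.25 CPM (median 6.43) in blank hearts and 7.35 to 7.84 CPM (median 7.63) in PLCβ1b hearts, without overlap, at 0.27 (standard error 0.092, FDR 0.427) on the log2 scale. Mcf2l, a guanine nucleotide exchange factor, measured 30.4 to 38.7 CPM (median 32.5) in blank hearts and 19.1 to 31.8 CPM (median 25.5) in PLCβ1b hearts, a log2 change of -0.44 (standard error 0.10, FDR 0.196); it was called by DESeq2, by limma on FPKM and without robust estimation of the dispersions. Splicing regulators, the group of Srrm4, had 1 of 45 higher, Srrm4 itself, and 4 lower.

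**Figure D3:**
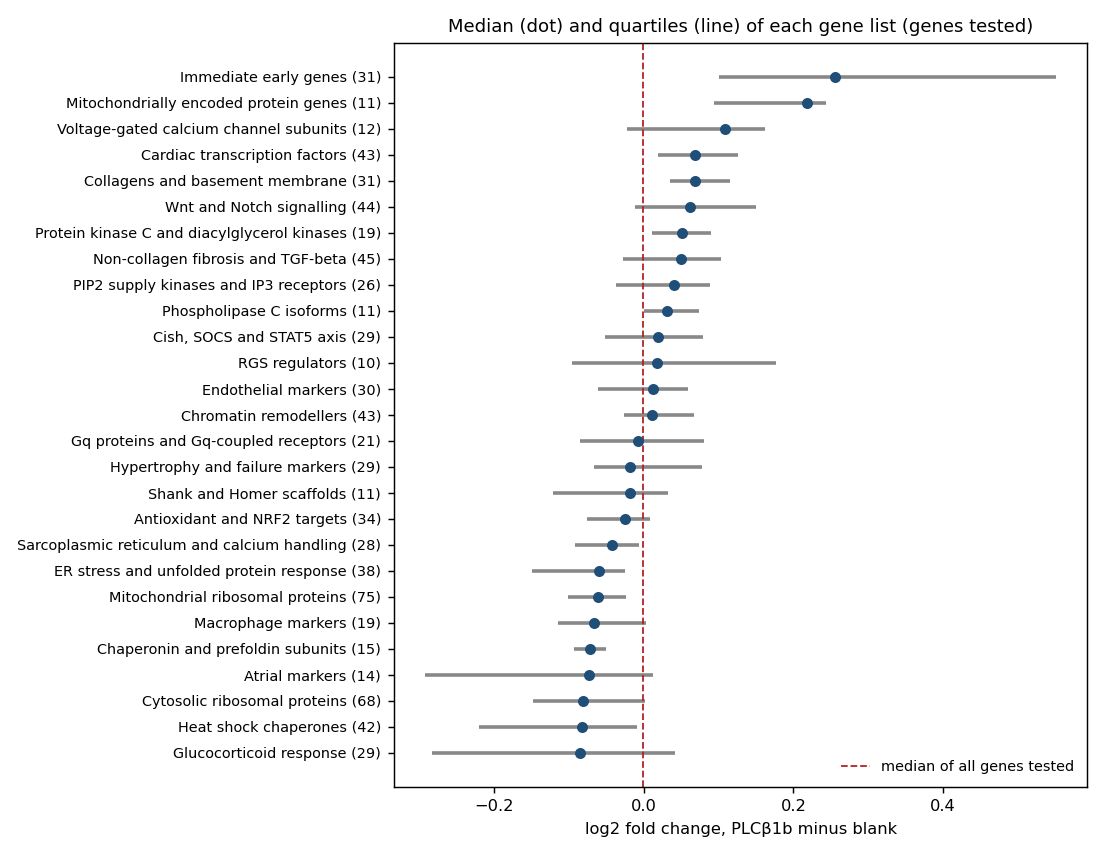
Dots give the median log2 fold change (PLCβ1b minus blank) of 27 gene lists, grey lines join the quartiles over each list's genes, and the number of genes tested is in parentheses; the dashed line is the median of all genes. Immediate early genes (0.26) and mitochondrially encoded genes (0.22) have the highest medians and glucocorticoid response genes (-0.085) the lowest, and most lists lie within 0.1 of 0.

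Genes that make and fold proteins were mostly below 0. Of 68 cytosolic ribosomal protein genes, 9 were lower at an unadjusted p under 0.05 (13.2%, where all genes gave 3.47%) and 0 higher, 51 were below 0, and the median was -0.081. Rps24 measured 23.4 to 27.8 CPM (median 26.4) in blank hearts and 22.2 to 25.2 CPM (median 24.1) in PLCβ1b hearts (log2 fold change -0.13, standard error 0.053, FDR 0.599), and Rpsa 15.8 to 18.8 CPM (median 17.6) in blank hearts and 14.001 to 17.03 CPM (median 15.9) in PLCβ1b hearts (log2 fold change -0.17, standard error 0.068, FDR 0.599). Near-identical processed copies of these genes can take or lose reads, so single values of this family are uncertain. Mitochondrial ribosomal proteins, which translate the genes of the organelle's own genome, had 7 of 75 lower and 0 higher, 62 below 0 and a median of -0.061. Mrpl48 measured 5.51 to 6.81 CPM (median 6.49) in blank hearts and 4.40 to 5.40 CPM (median 5.24) in PLCβ1b hearts, without overlap, Mrpl18 33.8 to 36.4 CPM (median 35.03) in blank hearts and 29.6 to 34.3 CPM (median 31.6) in PLCβ1b hearts (log2 fold change -0.15, standard error 0.047, FDR 0.379), and Mrps12 was at -0.23 (standard error 0.077, FDR 0.415). Both families are short, with median exonic lengths of 740.0 and 1053 bases, and the medians after correction for length and GC content were -0.067 and -0.037. Of the 1229 genes tested with up to 1192 bases of exons, 54 were lower at an unadjusted p under 0.05. The means per heart were -0.14 to 0.11 in blank hearts and -0.15 to -0.0064 in PLCβ1b hearts for the cytosolic family and -0.038 to 0.041 in blank hearts and -0.084 to -0.024 in PLCβ1b hearts for the mitochondrial one.

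Chaperones were also mostly below 0, with a wide spread between hearts. Of 42 heat shock chaperone genes 36 were below 0, 6 were lower at an unadjusted p under 0.05 (14.3%, where all genes gave 3.47%) and 1 was higher, and the median was -0.082. Hspd1 measured 81.9 to 97.4 CPM (median 89.04) in blank hearts and 71.3 to 86.02 CPM (median 77.02) in PLCβ1b hearts, the small heat shock gene Hspb2 10.4 to 13.2 CPM (median 12.04) in blank hearts and 9.75 to 10.9 CPM (median 9.99) in PLCβ1b hearts (log2 fold change -0.22, standard error 0.073, FDR 0.379), and Hspa1l 2.07 to 5.25 CPM (median 3.78) in blank hearts and 1.93 to 3.39 CPM (median 2.61) in PLCβ1b hearts (log2 fold change -0.52, standard error 0.17, FDR 0.427). Hspb3, a small heat shock gene of muscle, was the one on the higher side, at 0.49 (standard error 0.15, FDR 0.349). The mean per heart was -0.24 to 0.16 in blank hearts and -0.32 to 0.12 in PLCβ1b hearts, and the median lay between -0.13 without blank heart 33 and -0.043 without PLCβ1b heart 4. The cytosolic chaperonin and prefoldin family had 14 of 15 below 0 and a median of -0.072, with Cct6a at -0.16 (standard error 0.057, FDR 0.519). In the endoplasmic reticulum stress list, 3 of 38 were lower and the median was -0.059, but it was 0.013 without blank heart 30. Herpud1, a degradation factor induced by that stress, measured 71.4 to 86.4 CPM (median 73.9) in blank hearts and 59.7 to 70.98 CPM (median 67.2) in PLCβ1b hearts, without overlap (log2 fold change -0.20, standard error 0.055, FDR 0.233), and was at -0.16 without blank heart 30. Ddit3 (the factor CHOP) was at -0.45 (standard error 0.15, FDR 0.417) and Atf4 at -0.15 (standard error 0.073, FDR 0.661).

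Genes of energy metabolism lay close to 0. The nuclear genes of the respiratory chain had medians of -0.015 for complex I (3 of 36 lower, 0 higher), -0.028 for complex IV and -0.032 for ATP synthase, and with the correction for length and GC content these were 0.0070, -0.019 and -0.011, so the sign for complex I turned with it. Complexes II and III had none of 13 at an unadjusted p under 0.05 and a median of -0.023, which was also of the other sign with the correction, at 0.0056. In the citric acid cycle 14 of 27 genes were above 0 and the median was 0.00054, and the 3 at that limit were all lower, Idh3a, Oxct1 (-0.10) and Mdh1 (-0.082). Idh3a, a subunit of isocitrate dehydrogenase in the citric acid cycle, measured 205 to 222 CPM (median 214) in blank hearts and 190.0 to 204 CPM (median 195) in PLCβ1b hearts, without overlap (log2 fold change -0.12, standard error 0.035, FDR 0.266), and DESeq2 called it. Ppara, the nuclear receptor that drives fatty acid oxidation, measured 44.9 to 53.6 CPM (median 52.2) in blank hearts and 35.1 to 49.3 CPM (median 44.3) in PLCβ1b hearts (log2 fold change -0.22, standard error 0.068, FDR 0.379), and of 60 genes of fatty acid uptake and oxidation 2 were higher and 4 lower. In glucose transport and glycolysis 1 of 45 was higher and 0 lower, with 22 above 0 and 23 below, and in creatine and nucleotide energy transfer 1 of 25 higher and 1 lower, with a median of -0.0011. Among 34 antioxidant and NRF2 target genes 5 were lower and 0 higher, Srxn1 at -0.31 (standard error 0.094, FDR 0.348), Gsta3 at -0.46 and Gpx3 at -0.20, with a median of -0.025 that was -0.0049 after the correction. The median was -0.041 without blank heart 26 and -0.011 without blank heart 33, and PLCβ1b heart 8 was the only one of its group above the blank mean.

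Transcripts of the mitochondrial genome were mostly above 0, unlike the nuclear genes of the same organelle. Of 11 mitochondrially encoded protein genes tested, 10 were above 0, 2 were higher at an unadjusted p under 0.05 and none lower, and the median was 0.22. mt-Cytb, cytochrome b, measured 9875 to 12493 CPM (median 10421) in blank hearts and 10841 to 13702 CPM (median 12266) in PLCβ1b hearts (log2 fold change 0.19, standard error 0.071, FDR 0.592), and mt-Nd5, of complex I, 3013 to 4682 CPM (median 3328) in blank hearts and 3451 to 4636 CPM (median 4421) in PLCβ1b hearts (log2 fold change 0.29, standard error 0.13, FDR 0.649). The mean of these genes per heart was -0.22 to 0.28 in blank hearts and 0.052 to 0.27 in PLCβ1b hearts; blank heart 30 was above every PLCβ1b heart and blank heart 26 within their range. The share of all mitochondrial counts, given above, overlapped between groups, but it is mostly the ribosomal RNA mt-Rnr2 and not these protein genes. On FPKM the median of the protein genes was 0.10. Lars2, a mitochondrial tRNA synthetase gene, had 136 CPM in PLCβ1b heart 17, against 3.70 to 7.70 in the other PLCβ1b hearts and 3.91 to 7.76 in blank hearts, and its log2 fold change of 2.27 (standard error 1.04) was 0.027 without that heart.

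Genes that react to stimuli and stress hormones varied widely between hearts of the same group. Immediate early genes, which are induced within minutes of a stimulus, had 27 of 31 above 0 and the highest median of the 27 lists plotted, 0.26, but only 1 was higher at an unadjusted p under 0.05 and 2 were lower. Egr1 measured 2.60 to 8.14 CPM (median 5.71) in blank hearts and 2.36 to 35.7 CPM (median 7.10) in PLCβ1b hearts, and Fos 1.27 to 5.44 CPM (median 4.19) in blank hearts and 3.38 to 14.6 CPM (median 5.83) in PLCβ1b hearts. PLCβ1b heart 16 was highest for Egr1, at 35.7 CPM, and PLCβ1b heart 6 for Fos, at 14.6 CPM, and the blank and PLCβ1b ranges overlap for both. Klf10, a factor of this class that TGF-β also induces, was the one on the higher side (log2 fold change 0.28, standard error 0.10, FDR 0.501). The mean of the list per heart was -0.35 to 0.30 in blank hearts and -0.062 to 0.95 in PLCβ1b hearts, and the median was 0.15 without PLCβ1b heart 16. Of 29 glucocorticoid response genes 6 were lower at an unadjusted p under 0.05 (20.7%, where all genes gave 3.47%) and 0 higher, with a median of -0.085. That list was written with the low value of Zbtb16 known and holds it. Its median was -0.16 without PLCβ1b heart 16 and -0.042 without PLCβ1b heart 4. Klf15, a metabolic regulator, measured 17.3 to 21.7 CPM (median 20.4) in blank hearts and 14.5 to 20.5 CPM (median 15.8) in PLCβ1b hearts (log2 fold change -0.28, standard error 0.081, FDR 0.297), Fkbp5, a chaperone of the receptor, 6.04 to 9.98 CPM (median 7.91) in blank hearts and 3.99 to 7.79 CPM (median 5.66) in PLCβ1b hearts (log2 fold change -0.51, standard error 0.16, FDR 0.402), and Fam107a was at -0.64 (standard error 0.17, FDR 0.196). The ranges of Klf15, Fkbp5 and Fam107a overlap between groups, and the list's mean per heart was -0.22 to 0.15 in blank hearts and -0.41 to 0.13 in PLCβ1b hearts. The thyroid hormone receptor gene Thra was at 0.18 (standard error 0.060, FDR 0.402) and its relative Thrb at -0.14 (standard error 0.063, FDR 0.641).

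**Figure D4:**
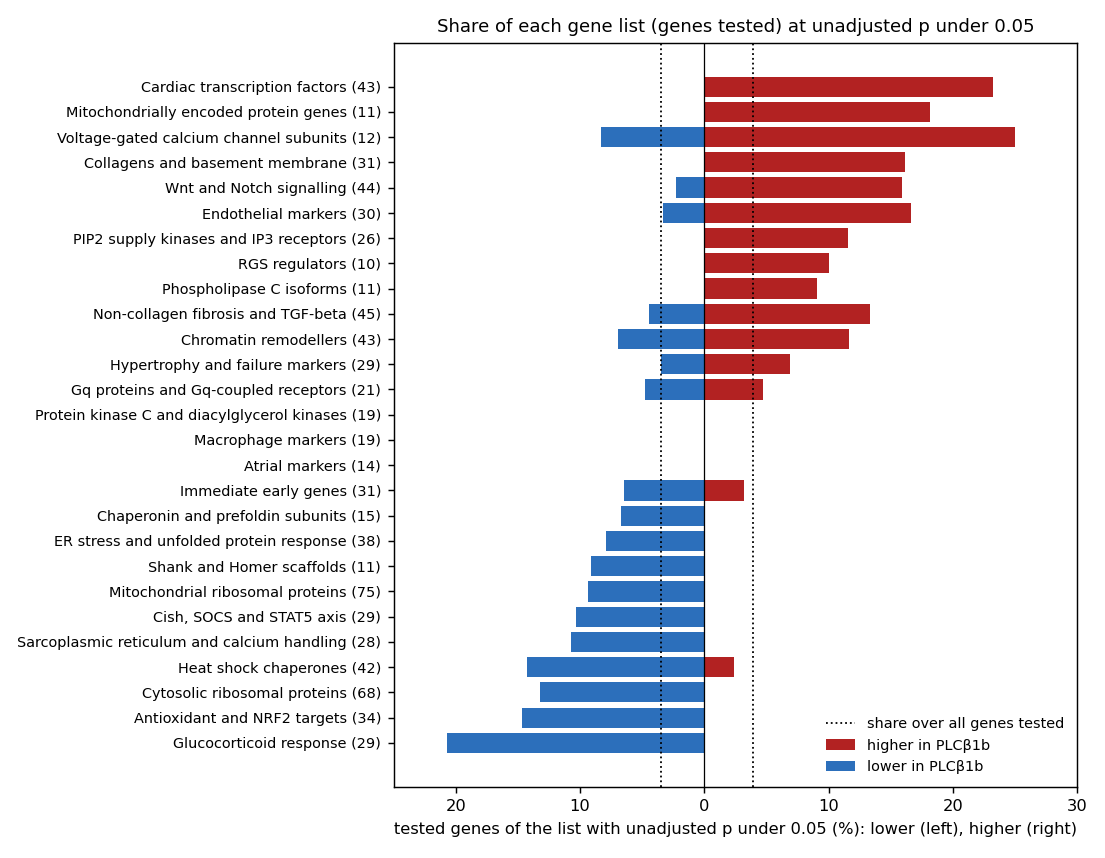
Bars give the percentage of the tested genes of each of 27 lists that were higher (right, red) or lower (left, blue) in PLCβ1b hearts at an unadjusted p under 0.05, with the number of genes tested in parentheses; dotted lines mark the shares over all genes, 3.94% higher and 3.47% lower. Cardiac transcription factors (23.3% higher) and glucocorticoid response genes (20.7% lower) lie far from these lines with no gene on the opposite side, and protein kinase C, macrophage and atrial lists have no gene at the limit.

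Summed markers of cell types overlapped between groups. Cardiomyocyte markers summed to 58928 to 63847 CPM in blank hearts and 58513 to 61396 in PLCβ1b hearts, and 0 of 17 were higher and 1 lower. Endothelial markers summed to 790.1 to 899 and 807 to 916 CPM, with 5 of 30 higher, Pcdh17 and Lmo2 among them, 1 lower and a median of 0.013. The endothelial cadherin gene Cdh5 measured 66.8 to 75.5 CPM (median 69.96) in blank hearts and 70.2 to 84.9 CPM (median 76.6) in PLCβ1b hearts (log2 fold change 0.14, standard error 0.049, FDR 0.417), and the phosphatase gene Ptprb 99.1 to 119 CPM (median 112) in blank hearts and 117 to 130.4 CPM (median 119) in PLCβ1b hearts (log2 fold change 0.11, standard error 0.046, FDR 0.599). Both overlap between groups. Of 18 pericyte and smooth muscle markers 1 was higher, Pdgfrb (log2 fold change 0.17, standard error 0.052, FDR 0.349), with a median of 0.048. Macrophage markers had none of 19 at that limit and a median of -0.067, which was -0.13 without PLCβ1b heart 8. Atrial markers, which show how much atrium was in the tissue, had none of 14 at that limit. They summed to 220.2 to 264 CPM in blank hearts and 215 to 262 in PLCβ1b hearts. Of the 14, 9 were below 0, and the median was -0.073. Their mean per heart was -0.093 to 0.077 in blank hearts and -0.35 to 0.092 in PLCβ1b hearts. Interferon response genes, which viruses can induce, had 3 of 49 higher and 0 lower, with a median of 0.052, or -0.033 without PLCβ1b heart 8.

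By RNA class, noncoding and protein-coding genes both had medians close to 0. Noncoding genes had a median of -0.0059 over 392 genes, with 14 higher and 13 lower at an unadjusted p under 0.05, and protein-coding genes -0.00071 over 11870 genes, with 470 higher and 412 lower. Small nucleolar RNAs had 3 of 24 higher and 0 lower, with a median of 0.097, and Snora7a had no overlap (log2 fold change 0.49, standard error 0.15, FDR 0.353). Their median was 0.015 without PLCβ1b heart 4 and 0.17 without blank heart 34. On both FPKM scales it was exactly 0, as on log2(FPKM + 0.1) for microRNA genes and mitochondrial ribosomal and transfer RNAs. Whether the deposited FPKM holds values for such short genes was not checked, so this 0 is not read as no change. The microRNA genes, counted here as genes and not as mature microRNAs, had 0 of 16 higher and 3 lower and a median of 0.038, or -0.093 without PLCβ1b heart 4. Of 5 small nuclear and cytoplasmic RNAs 2 were higher, Rnu12 and Rmrp. Rmrp, the RNA of a ribosomal RNA processing complex, measured 229.8 to 382 CPM (median 300.3) in blank hearts and 310.0 to 504 CPM (median 380.0) in PLCβ1b hearts (log2 fold change 0.39, standard error 0.14, FDR 0.525), and Rnu12 13.3 to 16.7 CPM (median 16.4) in blank hearts and 17.2 to 22.3 CPM (median 20.1) in PLCβ1b hearts. The ranges overlap for Rmrp and not for Rnu12. The 311 Zfp genes had 14 higher and 17 lower, the 209 solute carriers 5 and 11, and the 473 Rik genes, the class of 2810055G20Rik, 17 and 17. Among 41 tubulins and kinesins 3 tubulin genes were lower, Tubb2a at -0.30 (standard error 0.092, FDR 0.349), Tubb4b at -0.28 (standard error 0.092, FDR 0.467) and Tuba4a at -0.28 (standard error 0.12, FDR 0.641), and 0 were higher. That is 7.32% lower, where all genes gave 3.47%, and the median was 0.013. The 122 predicted Gm genes had 2 higher and 3 lower, the 163 Tmem genes, the class of Tmem245, 4 and 8, and 50 Rab genes of vesicle traffic 1 and 2, with Rab30 at -0.56 (standard error 0.15, FDR 0.196). Medians by nuclear chromosome lay between -0.0083 (chromosome 15) and 0.0095 (chromosome X), apart from the 4 genes tested on Y.

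In the remaining lists of signalling, metabolism and stress few genes reached an unadjusted p under 0.05. Among insulin, PI3K and FoxO genes there were 2 of 39 higher and 2 lower, Rptor (the mTORC1 scaffold raptor) at 0.19 and the transcription factor Foxo1 at 0.15 against Pik3r1 and the kinase Akt1 at -0.10. Circadian clock genes had 18 of 25 below 0 and a median of -0.037, or -0.0054 without PLCβ1b heart 4, and only Npas2, a partner of the clock factor encoded by Arntl, reached that limit, at 0.79 (standard error 0.30, FDR 0.564). Genes of the thyroid hormone axis had 1 of 23 higher and 3 lower, with the potassium channel gene Kcna5 at -0.31 and the receptor partner Rxrb at -0.17. Of 24 hypoxia response genes 15 were below 0, with a median of -0.048, whereas Hif1a, the regulator itself, was the only one at that limit and on the higher side, at 0.16 (standard error 0.057, FDR 0.459). Among apoptosis genes and p53 targets the survival gene Bcl2l1 was at -0.27 (standard error 0.081, FDR 0.348) and Gadd45b at -0.47, while the death genes Casp9 and Bcl2l11 were at 0.26 and 0.37, and these 4 were the only ones of 40 at that limit. Autophagy and lysosome genes had 0 of 45 higher and 1 lower, cell cycle genes 2 of 28 higher and 1 lower, cholesterol and lipid synthesis 1 of 30 higher and 0 lower, and folate and one-carbon metabolism 1 of 21 higher and 0 lower.

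Immune lists were also near the background. Inflammatory cytokines and chemokines had 2 of 41 higher and 1 lower, the receptor gene Cxcr4 at 0.49 and the ligand gene Cxcl16 at -0.24 among them, and antigen presentation and complement 1 of 28 higher and 0 lower, H2-Q4 at 0.35 (standard error 0.11, FDR 0.349). The median of the cytokine list was 0.022, but -0.037 without PLCβ1b heart 16 and 0.096 without blank heart 30. Rare cell types left few genes to test. Of 8 lymphatic endothelial markers Prox1 alone was higher and the median was -0.021, of 7 endocardial markers Vwf alone, at 0.17, and of 6 adipocyte markers 5 were below 0, with Pparg at -0.22 and Lpl at -0.091 at an unadjusted p under 0.05. The adipocyte median was -0.068, or -0.16 without PLCβ1b heart 8 and -0.028 without PLCβ1b heart 17. None of 7 Schwann cell and neuronal, 6 epicardial and 6 skeletal muscle markers reached that limit, and of the 3 markers tested for each of granulocytes, erythrocytes and platelets only the platelet gene Pf4 did, at -0.34.

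In families of the general cell machinery few genes reached an unadjusted p under 0.05. Translation initiation and elongation factors had 42 of 64 below 0 and a median of -0.023, with 2 higher and 2 lower, and aminoacyl-tRNA synthetases had 1 of 37 higher, Lars2. Mitochondrial protein import had none of 22 at that limit, and mitochondrial carriers 0 of 38 higher and 1 lower, the adenine nucleotide carrier gene Slc25a5 at -0.13 (standard error 0.047, FDR 0.49). The ribosomal and transfer RNAs of the mitochondrion had 10 of 11 above 0 and a median of 0.11, and none reached that limit. Their median ran from 0.044 without blank heart 36 to 0.31 without blank heart 30. It was exactly 0 on FPKM, where it was not checked whether such short genes have values. In protein breakdown, proteasome subunits had 1 of 37 higher and 2 lower, TRIM proteins 1 of 33 higher and 3 lower, and ubiquitin-specific proteases none of 44. In the nucleus, Mediator subunits had 2 of 30 higher and 1 lower, RNA polymerase subunits none of 27, spliceosomal proteins 0 of 32 higher and 1 lower with 23 below 0, and histone genes 1 of 36 higher and 0 lower, Hist1h4i at 0.99 (standard error 0.30, FDR 0.313). At the cell membrane, integrins had 17 of 25 above 0 and a median of 0.082, 0.052 without PLCβ1b heart 4, with Itgb5 alone at that limit (0.12). Cadherins and protocadherins, the family of Pcdh17, had 4 of 47 higher and 0 lower and 32 above 0, and potassium channels 2 of 37 higher and 1 lower, with Kcna4, of the transient outward current, at 0.57.

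Leaving out 1 heart turned the sign of the median in 6 of the 27 lists plotted. These were Gq proteins and receptors, RGS regulators, Shank and Homer scaffolds, the Cish and STAT5 list, hypertrophy markers and the endoplasmic reticulum stress list, all but the last with a median within 0.02 of 0. The Wnt, collagen, fibrosis, cardiac transcription factor, ribosomal protein, heat shock, chaperonin, calcium store and mitochondrially encoded lists kept the sign of their medians without any 1 heart and on log2(FPKM + 0.1). Sizes were less stable than signs. The median turned or moved by over 1.5 times without some heart in 19 of the 27 lists plotted and in 82 of the 92 lists with 5 or more genes tested, on log2(FPKM + 0.1) in 13 and 71, and with the correction for length and GC content in 12 and 56. List medians were also taken between PLCβ1b and PLCβ1a hearts. The sign was opposite to that against blank for immediate early (-0.17) and Wnt and Notch genes (-0.0084). So it was for cytosolic (0.021) and mitochondrial (0.022) ribosomal proteins, voltage-gated calcium channel subunits (-0.026) and PIP2 supply genes (-0.031). It was likewise opposite for non-collagen fibrosis genes (-0.011), cadherins (-0.039), histone and DNA modifying enzymes (-0.025) and macrophage markers (0.043). It was the same for heat shock (-0.056), glucocorticoid (-0.065), collagen (0.023) and mitochondrially encoded protein genes (0.10). Cardiac transcription factors (0.0076) and calcium store genes (-0.0065) kept their sign but lay near 0. Not every list of either kind is named here.

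**Figure D5:**
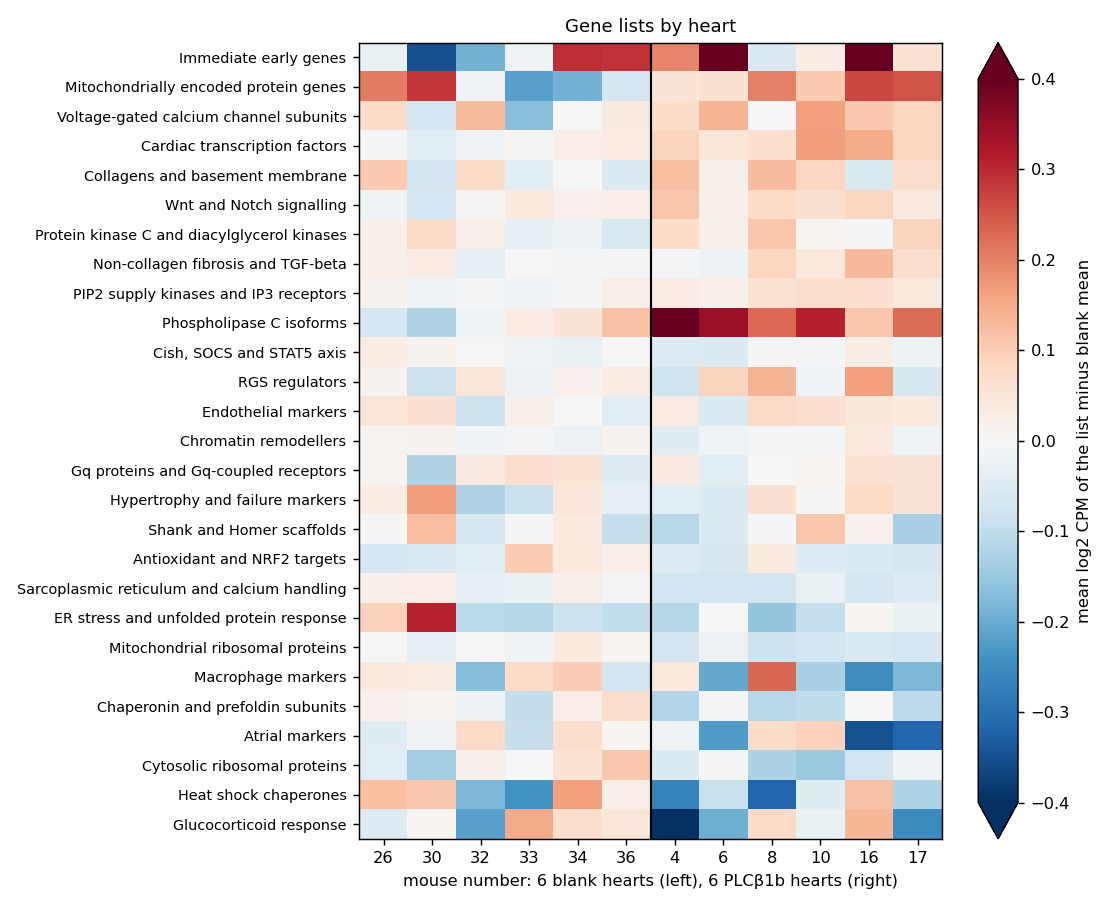
Colours give the mean log2 CPM of the tested genes of each of 27 lists in each heart, minus the mean of the blank hearts (red higher, blue lower, cut at 0.4), with the 6 blank hearts on the left of the line and the 6 PLCβ1b hearts on the right, by mouse number. Cardiac transcription factors are above the blank hearts in all 6 PLCβ1b hearts, the phospholipase C row includes Plcb1 itself, and immediate early, heat shock, glucocorticoid and macrophage genes span overlapping ranges in both groups.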

How the data were processed

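RNA of heart ventricle was taken from 6 mice given rAAV6-PLCβ1b, 6 given rAAV6-blank and 6 given rAAV6-PLCβ1a, and each heart came from a separate mouse. Libraries, which the authors made after ribosomal RNA was removed, were strand-specific and paired-end, with reads of 76 nt. They aligned the reads with TopHat2 2.0.10 to mm10 and counted them with HTSeq per gene and strand, and the deposited counts are raw (23457 genes). The deposited FPKM values, fragments scaled to exon length and library size, are the authors' own. Cufflinks 2.1 is among the programs in the submitters' processing notes, and whether it made these values is not given in the sources used here. The study tested its counts with DESeq and edgeR, and DESeq was not run here.

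Counts of all 18 hearts were fitted in one model of 3 groups with edgeR 4.0.16 (R 4.3.3), with TMM scaling and the robust quasi-likelihood F test, and PLCβ1b was contrasted with blank. Genes entered after filterByExpr (minimum count 10, minimum total 15), which left 12281. P-values were adjusted by Benjamini-Hochberg over all of them, and a gene was called at FDR below 0.1. The standard error is the log2 fold change divided by the square root of F. CPM used TMM-scaled totals, and a prior count of 2 was added for log2 values. Values of hearts, such as library shares, were tested by exact permutation (924 arrangements, smallest p 0.0022). The fit was also run on simulated counts with known changes, and the outcome is neither given nor used as support here.

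Gene lists were described by counts and medians beside those of all genes and were given no test. Named genes are Plcb1, the called genes, the 10 uncalled genes of lowest p in each direction, up to 4 tested genes of lowest p in each list and a set of standard heart genes. The 12 hearts and the lists were chosen with earlier results of these data known. The counts of 1 list are not reported here. A further name pattern for antisense genes was dropped because it matched unrelated genes. Positions and exonic lengths came from the deposited annotation and GC content from GENCODE transcripts (94.1% of the genes tested had both). Spreadsheet dates had replaced 27 gene names, which were kept in the fit and not named.

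Alternatives were RLE and upper-quartile scaling, DESeq2 1.42.0, no filter, the 12 hearts only, mitochondrial genes left out, limma 3.58.1 on log2 FPKM with 0.1 or 1 added, FDR below 0.05 and leaving out each heart. Fits without robust dispersion and with a correction for length and GC content were added after the data were seen. Counting error and the spread between mice enter the standard errors together, and depth was not varied.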

Additional observations from a re-analysis of the deposited data

Results flagged for a closer look

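In groups of 6 hearts, a heart was listed when its gap to the nearest other heart exceeded 0.625 of the range of its group. This held in 22 of 312 groups of values checked, and chance alone would list about 1 in 20. No explanation was tested for any of them.

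Among blank hearts, heart 30 was the most frequent. It was lowest for the noncoding RNA 2810055G20Rik, at 5.42 CPM against 6.83 to 7.34 in the other hearts of its group. It was highest for the glucocorticoid-induced Zbtb16 (81.5 CPM, others 43.0 to 56.3), the kinase subunit gene Pik3r1 (125.6, others 95.5 to 104.0), the stress gene Herpud1 (86.4, others 71.4 to 76.9) and the clock gene Arntl (13.3, others 0.989 to 3.66). Heart 26 was highest for the kinase gene Prkca (17.0 CPM, others 14.6 to 15.5) and for Ctgf (24.9, others 20.9 to 21.9). Heart 33 was highest for Rtn4r (3.74 CPM, others 1.64 to 2.37) and heart 36 for Myh6 (9016 CPM, others 8182 to 8471).

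Among PLCβ1b hearts, heart 16 was highest for Egr1 (35.7 CPM, others 2.36 to 11.2), Klf10 (12.1, others 7.69 to 9.12) and Klf15 (20.5, others 14.5 to 16.5). Heart 6 was highest for Fos (14.6 CPM, others 3.38 to 7.49), Fhl2 (556, others 461 to 487) and Tubb4b (49.1, others 39.5 to 42.0), and lowest for mt-Nd5 (3451, others 4269.9 to 4636). Heart 6 was also lowest in the mean of the endothelial markers (-0.058 on the log2 scale relative to the blank mean, others 0.034 to 0.076). Heart 8 was highest for Ptprb (130.4 CPM, others 117 to 121), for Lifr (63.3, others 57.3 to 59.5) and in the mean of the antioxidant list (0.038, others -0.064 to -0.051). Heart 4 was highest for the called gene Cish (16.8 CPM, others 13.19 to 14.5). Heart 17 had 135.5 CPM of Lars2, against 3.70 to 7.70 in the others.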

How the results depend on the processing

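The 12 calls (9 higher, 3 lower) became 24 (16 and 8) with DESeq2, 24 (15 and 9) with no filter on low counts, 4 on log2(FPKM + 0.1) and 5 on log2(FPKM + 1), where 1 was higher in each, and 7 (4 higher) at FDR below 0.05. Of the genes lower in PLCβ1b hearts, 5 were called without robust dispersion and 5 with the correction for length and GC content. Leaving out 1 heart gave 2 to 18 calls, 1 to 12 of them higher and 1 to 8 lower. It gave 795 to 997 genes at an unadjusted p under 0.05 and 81 to 115 without overlap, where 5 hearts meet 6. At an unadjusted p under 0.05, genes higher in PLCβ1b hearts were 484 in the main result, 263 with FPKM + 0.1 and 260.0 with FPKM + 1. The cause was not tested.

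Of 125 named genes, 8 had a value of opposite sign under some alternative, none of them called. Leaving out 1 heart gave Plcb3 from -0.034 to 0.035, Plcb4 from -0.0019 to 0.064, Shank3 from -1.97e-05 to 0.072, Pln from -0.022 to 0.017, Nppa from -0.084 to 0.049, Nppb from -0.33 to 0.0051 and Arntl from -0.72 to 0.64, the last without blank heart 30. No filter gave Plcb3 -0.0028. With the correction for length and GC content Plcb3 was -0.027, Shank3 -0.040, Pln 0.016 and Nppa 0.0015. On log2(FPKM + 0.1) and log2(FPKM + 1) Shank3 was -0.014 and -0.010 and Myh7 -0.0074 and -0.0073 (0.057 to 0.46 when 1 heart was left out), and Arntl was 0.030 on the first. Of 92 list medians, 16 had the other sign on each of these FPKM scales and 15 with the correction. No scaling moved the median of all genes beyond -0.019 to 0.0022. No paired analysis was possible because mouse numbers differ between groups. The numbers run from 26 to 36 in blank hearts and from 4 to 17 in PLCβ1b hearts. Any difference that goes with mouse number therefore cannot be told apart from the vector.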
